A study of Mus musculus with 8 samples.

Results

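10 genes of bone morphogenetic protein (BMP) signalling were followed across 8 expression arrays of a mouse embryonic stem (ES) cell line. They were chosen by name: the ligand genes Bmp2, Bmp4, Bmp5 and Bmp7, the response genes Id1, Id2, Id3 and Id4, and the inhibitory Smad genes Smad6 and Smad7. All 10 members were found among the 18193 genes that had a probe set (a group of short probes summarised as 1 value) with exactly 1 gene symbol, and 19 of the 45037 probe sets on the array belonged to them. The cells were CCE ES cells of strain 129/Sv, kept undifferentiated with leukemia inhibitory factor. Transduced cells had received a lentivirus with a mouse Bmi1 cDNA or with no insert and were sorted for eGFP, so each line was a sorted population. There were 2 arrays of day 10 embryoid bodies from cells labelled Bmi1, 2 of day 10 embryoid bodies from empty vector cells, 2 of ES cells labelled Bmi1 and 2 of control ES cells, of which 1 was untreated and 1 carried the empty vector. Embryoid bodies are aggregates in which ES cells differentiate into many cell types. The series asked about blood cell formation after Bmi1 transduction, Bmi1 being a subunit of a Polycomb repressive complex.

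BMPs are secreted ligands that bind pairs of type I and type II serine/threonine kinase receptors. The receptors phosphorylate Smad1, Smad5 and Smad9, which enter the nucleus with Smad4 and activate target genes. The Id genes are among the best known targets. Id proteins have a helix-loop-helix domain but no DNA-binding region, and they hold E proteins such as Tcf3 and Tcf12 off DNA. Smad6 and Smad7 are induced by the pathway and act back on it as inhibitors, with Smad6 acting mainly on BMP signals and Smad7 on BMP and TGF-beta signals alike. In mouse ES cells grown with serum, BMP4 and Id proteins are known to restrain neural differentiation. In the early mouse embryo BMP4 is needed for mesoderm, and BMP2, BMP5 and BMP7 act in heart, limb, kidney and skeletal tissue.

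Promoter sequences are shown for 4 members, namely the 3 Id genes with an entry, which are response genes read in every comparison, and Bmp5, the member with the largest change between stages. They are the 250 bases upstream of the annotated start from RefSeq (build GRCm38.p6), on the strand of the gene, and 6 of the 10 members had an entry. Capitals mark the letters GGCGCC, found in BMP-responsive elements, and GTCT, the core letters read by Smad proteins, on either strand, so that GTCT on the other strand reads AGAC. The Id2 stretch lies on the minus strand at chr12:25096093-25096342, Id3 on the plus strand at chr4:136143572-136143821, Id4 on the plus strand at chr13:48260866-48261115 and Bmp5 on the plus strand at chr9:75775115-75775364.
Id2: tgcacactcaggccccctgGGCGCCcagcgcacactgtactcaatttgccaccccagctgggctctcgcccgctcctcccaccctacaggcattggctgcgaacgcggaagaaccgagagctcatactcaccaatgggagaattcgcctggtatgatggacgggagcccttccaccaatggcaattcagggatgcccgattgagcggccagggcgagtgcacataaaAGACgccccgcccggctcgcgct
Id3: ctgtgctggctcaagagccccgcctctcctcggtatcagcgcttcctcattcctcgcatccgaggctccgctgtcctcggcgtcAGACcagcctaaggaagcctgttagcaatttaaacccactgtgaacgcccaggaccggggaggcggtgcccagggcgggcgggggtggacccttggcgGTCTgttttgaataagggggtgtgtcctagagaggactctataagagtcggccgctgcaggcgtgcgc
Id4: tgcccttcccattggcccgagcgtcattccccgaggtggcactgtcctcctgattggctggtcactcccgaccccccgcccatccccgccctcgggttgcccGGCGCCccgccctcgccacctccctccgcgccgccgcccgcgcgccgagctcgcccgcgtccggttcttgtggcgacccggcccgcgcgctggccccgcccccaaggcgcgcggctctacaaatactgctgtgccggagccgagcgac
Bmp5: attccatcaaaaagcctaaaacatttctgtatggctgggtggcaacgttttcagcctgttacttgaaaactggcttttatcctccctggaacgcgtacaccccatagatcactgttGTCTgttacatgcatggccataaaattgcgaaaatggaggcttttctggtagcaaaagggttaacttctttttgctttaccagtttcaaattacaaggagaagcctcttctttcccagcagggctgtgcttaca
GGCGCC occurred once in Id2, starting 231 bases before the start, and once in Id4, 148 bases before it, and it was in 9.6% of all 32851 promoter stretches of this length. GTCT occurred once in Id2, 2 times in Id3 and once in Bmp5, and it was in 82.9% of all stretches, so its presence is the common case. No match of 1 motif overlapped a match of the other. The Bmp5 stretch had 42.8% G and C, against 62.8% in Id2, 62.8% in Id3 and 75.6% in Id4, and the median of all stretches was 52.4%. These matches describe letters in a window and do not show binding.

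The values are RMA values on a log2 scale, on which a difference of 1 is a 2-fold change. By their value distributions the arrays fell into 3 sets, made of the 4 ES cell arrays, the pair of embryoid body arrays numbered 1 and the pair numbered 2. Once sorted, values differed by 0.0325 at most on average inside a set and by at least 0.189 from one set to another. A pair held both kinds of embryoid bodies, but no set held both stages, so the stage comparison carries differences between sets. The number of arrays limits the precision of all values, and no label says that replicates were separate cultures, so the p-values speak only of how far these arrays scatter, and that scatter may be technical. The probe set of Bmi1 itself ran against the labels, with a difference of -1.51 ± 0.37 in embryoid bodies and -1.59 ± 0.37 in ES cells (SE; limma's adjusted p = 0.31 and 0.26, and 0.04 and 0.041 with the set as a block). The arrays are therefore called "labelled Bmi1" throughout, every direction given for them rests on that label, and the sources used here do not give whether these probes can read the transduced cDNA. The ES cell label was borne out by its markers: Pou5f1, the central pluripotency factor, averaged 8.03 in embryoid bodies labelled Bmi1 and 13.33 in ES cells labelled Bmi1, and 8.43 in vector embryoid bodies and 13.50 in control ES cells.

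**Figure D1:**
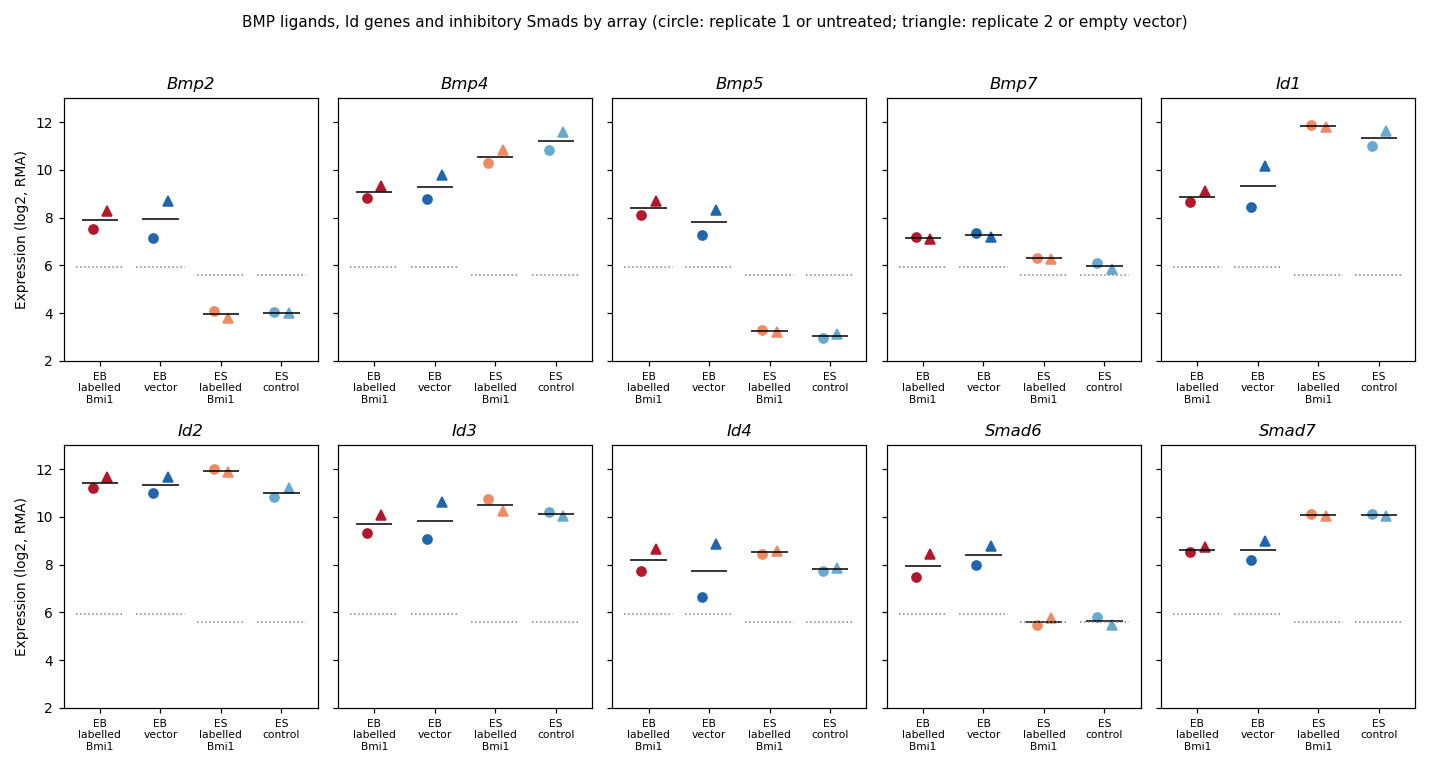
Expression of each gene (vertical axis, log2 RMA value of its brightest probe set) on each of the 8 arrays, by group. Points are arrays, black lines are group means of 2 arrays and grey dotted lines are the median of all probe sets on those arrays; Bmp2 and Bmp5 lie below that median on all 4 ES cell arrays and above it on all 4 embryoid body arrays.

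The largest differences among the 10 genes were between embryoid bodies and ES cells. In samples labelled Bmi1 7 of the 10 members passed the test, Bmp2, Bmp5, Bmp7 and Smad6 higher in embryoid bodies and Bmp4, Id1 and Smad7 lower, where 59.2% of the 12982 genes tested were called (adjusted p under 0.05 by limma), 21.2% higher and 38% lower. The same 7 were called in vector samples, where 58.5% of genes were called, 22.7% higher and 35.8% lower. Because most genes differed between stages, these counts are close to the background. The median log2 difference of the members was -0.41 in samples labelled Bmi1 and 0.14 in vector samples, against -0.27 and -0.24 over all genes tested. With the set as a random block, chosen after the data were seen, 6 of the 7 were still called in samples labelled Bmi1, all but Bmp4, where 43% of genes were. In vector samples all 7 were still called, where 43.2% of genes were. All 10 members passed the filter on dim genes. Bmp2 and Bmp5 passed it through the embryoid bodies alone, so their difference between stages was in part built into passing. In whole aggregates, fewer cells that express a gene and less RNA per cell cannot be told apart.

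Bmp5, a ligand of the BMP5/6/7 subgroup, was the member with the largest difference. It read 8.10 and 8.69 in embryoid bodies labelled Bmi1 and 7.28 and 8.32 in vector embryoid bodies, against 3.31 and 3.19 in ES cells labelled Bmi1 and 2.96 and 3.12 in control ES cells. Every embryoid body array lay more than 3 log2 units above every ES cell array. The log2 difference was 5.15 ± 0.35 in samples labelled Bmi1 and 4.76 ± 0.35 in vector samples (SE, n = 2 and 2 arrays, adjusted p = 8.74e-05 and 9.97e-05). The other 2 Bmp5 probe sets gave 3.93 and 3.26 in samples labelled Bmi1 and 3.83 and 3.12 in vector samples, so all 3 probe sets had the same direction. The ES cell values lay low on each array, at percentiles of 2.63 to 8.40, so the size of the fold change rests on very dim values.

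Bmp2, a ligand of the BMP2/4 subgroup, followed the same course. It read 7.52 and 8.26 in embryoid bodies labelled Bmi1 and 7.15 and 8.70 in vector embryoid bodies, against 4.08 and 3.81 in ES cells labelled Bmi1 and 4.03 and 4.02 in control ES cells. The stages did not overlap, and the log2 difference was 3.94 ± 0.48 in samples labelled Bmi1 and 3.90 ± 0.48 in vector samples (adjusted p = 6.7e-04 and 6.3e-04), about 15.4-fold and 14.95-fold. Its percentiles were 68.7 to 82.5 on the embryoid body arrays and 18.6 to 23.95 on the ES cell arrays.

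Bmp4, the closest relative of Bmp2, went the other way. It read 8.84 and 9.33 in embryoid bodies labelled Bmi1 and 8.77 and 9.78 in vector embryoid bodies, against 10.29 and 10.82 in ES cells labelled Bmi1 and 10.82 and 11.58 in control ES cells. All embryoid body arrays were below all ES cell arrays, although Bmp4 stayed bright, at percentiles of 86.0 to 91.2 in embryoid bodies and 91.1 to 96.1 in ES cells. In samples labelled Bmi1 the log2 difference was -1.47 ± 0.41 (adjusted p = 0.018), a call lost with the random block (adjusted p = 0.081), after quantile normalization (-0.82, adjusted p = 0.091), without embryoid body replicate 1 labelled Bmi1 (0.099) and without ES cell replicate 2 labelled Bmi1 (0.11). Bmp4 fell by 1.92 ± 0.41 on the log2 scale in vector samples (adjusted p = 0.0061, and 0.033 with the random block). Bmp7, of the same subgroup as Bmp5, rose by a smaller amount than Bmp2 or Bmp5, with 7.21 and 7.11 in embryoid bodies labelled Bmi1 and 7.36 and 7.18 in vector embryoid bodies, against 6.33 and 6.26 in ES cells labelled Bmi1 and 6.08 and 5.83 in control ES cells. Its log2 difference was 0.86 ± 0.17 in samples labelled Bmi1 and 1.31 ± 0.17 in vector samples (adjusted p = 0.0045 and 7.8e-04). The other Bmp7 probe sets, both dimmer, gave 1.25 and 0.91 in samples labelled Bmi1 and 1.94 and 1.68 in vector samples.

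**Figure D2:**
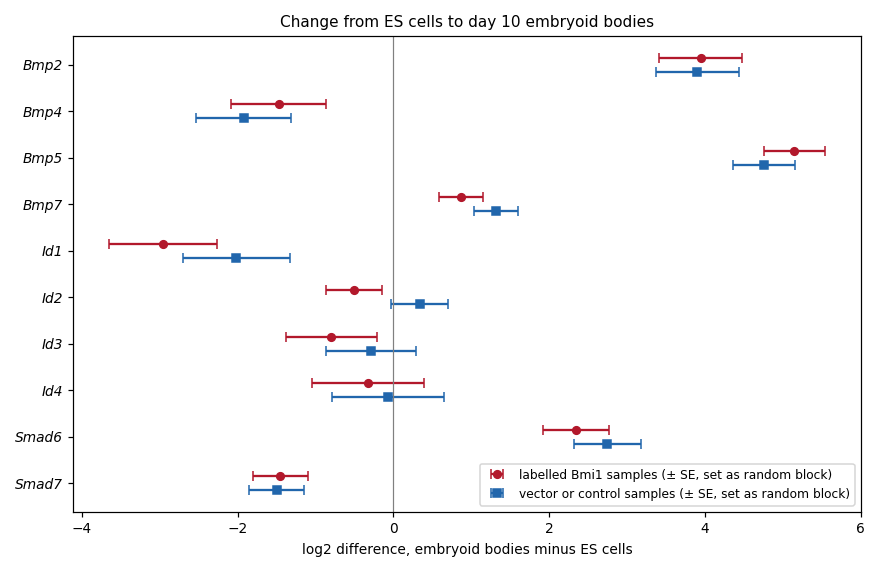
Log2 difference between embryoid bodies and ES cells (horizontal axis) for each gene in samples labelled Bmi1 (circles) and in vector or control samples (squares), with the SE of the fit that has the set of arrays as a random block (n = 2 and 2 arrays each). Bmp2, Bmp5, Bmp7 and Smad6 lie to the right of 0, Bmp4, Id1 and Smad7 to the left, and the SEs of Id2, Id3 and Id4 in vector or control samples span 0.

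Among the response genes, Id1 alone passed the test between stages in both kinds of samples. Id1 read 8.66 and 9.10 in embryoid bodies labelled Bmi1 and 8.47 and 10.16 in vector embryoid bodies, against 11.88 and 11.79 in ES cells labelled Bmi1 and 11.01 and 11.64 in control ES cells. All 4 embryoid body arrays were below all 4 ES cell arrays, with the vector replicate 2 embryoid bodies nearest to them. Id1 fell by 2.96 ± 0.51 on the log2 scale in samples labelled Bmi1 and by 2.02 ± 0.51 in vector samples (SE, n = 2 and 2 arrays, adjusted p = 0.0026 and 0.012). The call in vector samples was lost after quantile normalization (-1.30, adjusted p = 0.057) and against the untreated ES cell array alone (-1.70, adjusted p = 0.079), and without vector embryoid body replicate 1 the difference was -1.17.

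Id3, whose known roles overlap with those of Id1, read 9.32 and 10.10 in embryoid bodies labelled Bmi1 and 9.07 and 10.63 in vector embryoid bodies, against 10.76 and 10.26 in ES cells labelled Bmi1 and 10.22 and 10.06 in control ES cells. The 2 vector embryoid body arrays lay on either side of the control ES cell arrays. Its log2 difference was -0.80 ± 0.50 in samples labelled Bmi1 and -0.29 ± 0.50 in vector samples (adjusted p = 0.21 and 0.64). In samples labelled Bmi1 quantile normalization left a difference of -0.058 (limma's adjusted p = 0.92). There its percentiles overlapped, at 90.5 to 93.1 in embryoid bodies and 91.0 to 93.3 in ES cells. Id4, an Id gene of neural and glial precursors, had the widest replicate gap of all members, with 7.75 and 8.64 in embryoid bodies labelled Bmi1 and 6.65 and 8.85 in vector embryoid bodies, against 8.46 and 8.58 in ES cells labelled Bmi1 and 7.74 and 7.88 in control ES cells. The log2 difference was -0.32 ± 0.65 in samples labelled Bmi1 and -0.06 ± 0.65 in vector samples (adjusted p = 0.69 and 0.94). Each vector array by itself would have given a call for Id4, in opposite directions: the difference was 1.04 without vector replicate 1 (adjusted p = 0.043) and -1.17 without vector replicate 2 (adjusted p = 0.023). Id3 was called lower without vector replicate 2 (-1.07, adjusted p = 0.035) and was at 0.49 without vector replicate 1. In samples labelled Bmi1, Id3 was called at an unchanged difference without either vector embryoid body array (adjusted p = 0.047 each), which changes its estimated spread alone.

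Id2, an Id gene with known roles in lymphoid and many other lineages, depended on which probes were read. Its brightest probe set read 11.19 and 11.66 in embryoid bodies labelled Bmi1 and 11.02 and 11.69 in vector embryoid bodies, against 11.99 and 11.87 in ES cells labelled Bmi1 and 10.84 and 11.20 in control ES cells. Embryoid bodies were below ES cells in samples labelled Bmi1 and overlapped them in vector samples, with a log2 difference of -0.51 ± 0.28 in samples labelled Bmi1 and 0.33 ± 0.28 in vector samples (adjusted p = 0.16 and 0.33). The next brightest probe set read 9.14 and 9.62 in embryoid bodies labelled Bmi1 and 8.99 and 10.05 in vector embryoid bodies, against 11.46 and 11.42 in ES cells labelled Bmi1 and 10.37 and 10.79 in control ES cells. By that probe set Id2 was lower in embryoid bodies on every array, with log2 differences of -2.06 in samples labelled Bmi1 and -1.06 in vector samples (adjusted p = 0.0033 and 0.043 over 26332 probe sets). The third probe set was below the array median on all 8 arrays. Whether Id2 differed between stages was thus not settled by these probes, and quantile normalization moved the brightest one to 0.49 in samples labelled Bmi1 and 1.20 in vector samples (adjusted p = 0.12 and 0.0057).

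**Figure D3:**
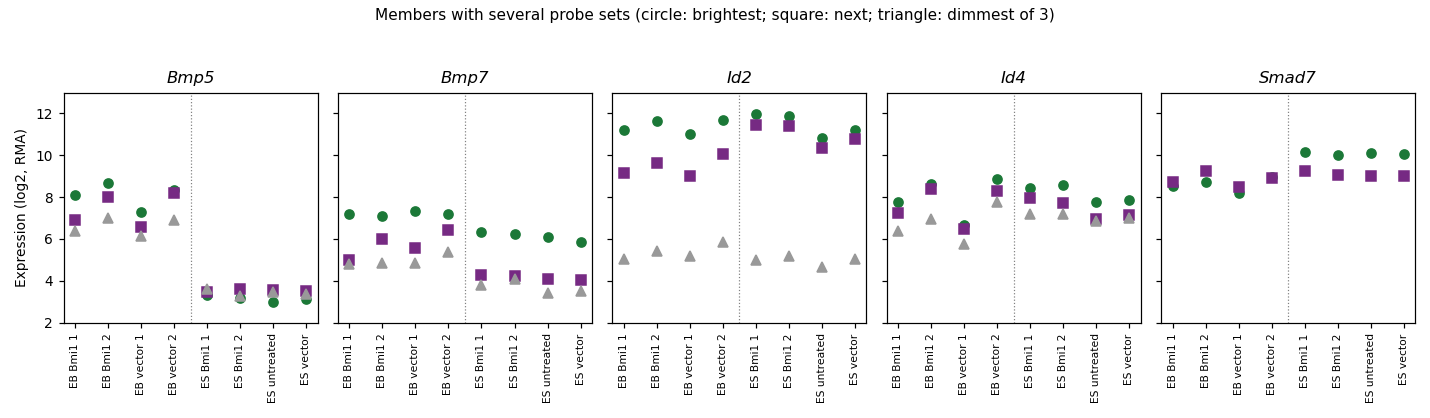
Expression (vertical axis, log2 RMA value) of every probe set of the 5 genes that had more than 1, on each of the 8 arrays (horizontal axis, embryoid bodies left of the dotted line and ES cells right of it). All probe sets of Bmp5 and of Bmp7 are higher in embryoid bodies, while those of Id2 part between the stages, the brightest staying above 11 in embryoid bodies and the next at 8.99 to 10.05.

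The inhibitory Smads moved in opposite directions. Smad6 read 7.48 and 8.45 in embryoid bodies labelled Bmi1 and 8.00 and 8.80 in vector embryoid bodies, against 5.48 and 5.75 in ES cells labelled Bmi1 and 5.82 and 5.49 in control ES cells, where it lay near the array median. It rose by 2.35 ± 0.38 on the log2 scale in samples labelled Bmi1 and by 2.74 ± 0.38 in vector samples (adjusted p = 0.002 and 0.001), about 5.08-fold and 6.70-fold. Smad7 read 8.51 and 8.74 in embryoid bodies labelled Bmi1 and 8.21 and 8.98 in vector embryoid bodies, against 10.14 and 10.02 in ES cells labelled Bmi1 and 10.12 and 10.06 in control ES cells. It fell by 1.45 ± 0.26 in samples labelled Bmi1 and by 1.50 ± 0.26 in vector samples (adjusted p = 0.003 and 0.0026). The other Smad7 probe set, of the type whose probes can match further transcripts, gave -0.17 and -0.31 (adjusted p = 0.58 and 0.32 over 26332 probe sets).

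By their brightest probe sets, Bmp2, Bmp5, Bmp7 and Smad6 were higher in all 4 embryoid body arrays than in all 4 ES cell arrays, and Bmp4, Id1 and Smad7 were lower in all 4. By the other Smad7 probe set the stages overlapped, with 9.25 in embryoid body replicate 2 labelled Bmi1 and 9.01 in untreated ES cells. When each gene was centred on its own mean, the closest pairs of members over the 8 arrays were Id3 with Id4, at a root mean square difference of 0.378 log2 units, and Bmp4 with Smad7, at 0.381, and the most unlike pair was Bmp5 with Id1, at 3.75. By the same measure over all genes tested, the 5 closest to Id1 were Ajuba, Uxt, Gsr, Exosc4 and 2410002F23Rik (0.244 to 0.269), and those closest to Bmp4 were Zfp553, Cdyl2, Acsbg3, Polr1b and Abcb1a (0.175 to 0.221). The 5 closest to Id2 were Gcnt1, Fam135a, Mapk12, Obi1 and Adgra3 (0.184 to 0.203), and to Id3 Irf2bp2, Guf1, Gabpb1, Cdkn2aip and Poc1b (0.163 to 0.199). No other member was among these 20 places, and the likeness includes stage and set, which the arrays share.

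The remaining genes of the pathway were read from lists by role. Of 5 further BMP and GDF ligands tested, Gdf3, a ligand of undifferentiated ES cells, fell by 4.16 ± 0.60 in samples labelled Bmi1 and by 3.55 ± 0.60 in vector samples (adjusted p = 0.0012 and 0.0022), and Bmp8b rose by 0.58 ± 0.18 in vector samples (adjusted p = 0.027), a call lost with the random block (0.14). Of 9 receptor and coreceptor genes, 4 rose and 2 fell in samples labelled Bmi1, where 59.2% of all genes tested were called, 21.2% higher and 38% lower. The same 4 rose and 1 fell in vector samples, where 58.5% were called, 22.7% higher and 35.8% lower. The type I receptors Acvr1 and Bmpr1a were at 1.08 ± 0.21 and 0.71 ± 0.16 in samples labelled Bmi1, against 2.01 ± 0.21 and 0.80 ± 0.16 in vector samples. The type II receptor Bmpr2 was at 1.27 ± 0.18 and the coreceptor Rgma at 1.80 ± 0.20 in samples labelled Bmi1, against 1.43 ± 0.18 and 1.54 ± 0.20 in vector samples. Rgmb, a relative of Rgma, fell by 1.62 ± 0.38 in samples labelled Bmi1 and by 1.35 ± 0.38 in vector samples, and the type I receptor Bmpr1b was at -1.59 ± 0.24 in samples labelled Bmi1 and -0.32 ± 0.24 in vector samples, where it was not called (adjusted p = 0.27). Rgma passed the filter on dim genes through embryoid bodies alone and Bmpr1b through the 2 ES cell arrays labelled Bmi1 alone, so their calls between stages were in part built into passing. Of these, Bmpr1a in samples labelled Bmi1 was lost with the random block (adjusted p = 0.066). Of 3 signal-carrying Smad genes tested, Smad5 was at 0.59 ± 0.20 in samples labelled Bmi1 and 0.62 ± 0.20 in vector samples (adjusted p = 0.038 and 0.032), and Smad1 was at -0.77 ± 0.25 in samples labelled Bmi1 (adjusted p = 0.03) and -0.04 ± 0.25 in vector samples. The 2 calls of Smad5 and the call of Smad1 were lost with the random block (adjusted p = 0.13, 0.12 and 0.065).

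Secreted modulators were mostly higher in embryoid bodies. Of 8 tested, 5 rose and 1 fell, Chrd, in samples labelled Bmi1, where 21.2% of all genes tested were called higher and 38% lower. In vector samples 6 rose and none fell, where 22.7% of genes were called higher and 35.8% lower. The other counts for vector samples below have that same background. With the random block 3 were still called higher in samples labelled Bmi1 and 4 in vector samples, and Chrd, at -0.58 ± 0.17, was lost (adjusted p = 0.12). That block called 43% and 43.2% of all genes, higher or lower. Bmper, an extracellular regulator of BMP signals, was at 2.53 ± 0.50 in samples labelled Bmi1 and 3.38 ± 0.50 in vector samples, and Bmp1, a protease that cleaves the antagonist chordin, was at 1.49 ± 0.17 and 2.07 ± 0.17. Of 8 intracellular brakes and coregulators, 2 rose and 3 fell in vector samples, with Bambi, a decoy receptor induced by BMP, at 2.43 ± 0.23 and Tob1, a repressor of Smad signals, at -1.61 ± 0.23. Of 10 further BMP-responsive transcription factor genes, 8 rose and 1 fell in vector samples, among them Tbx20 (3.27 ± 0.46), Gata3 (2.73 ± 0.38), Msx1 (1.95 ± 0.18), Hand1 (1.88 ± 0.17) and Msx2 (1.82 ± 0.39), and the one that fell was Tbx3 (-2.11 ± 0.58). Of the 3 E proteins, which Id proteins bind, Tcf12 and Tcf4 rose by 2.03 ± 0.16 and 0.81 ± 0.21 and Tcf3 fell by 1.51 ± 0.35 in vector samples, with Tcf4 lost under the random block (adjusted p = 0.12). That block also ended the calls of Atoh8, Smurf2 and Ski in vector samples (adjusted p = 0.0504, 0.18 and 0.097). Among samples labelled Bmi1, 9 responsive genes rose and 0 fell, Tbx3 not being called at -1.21. There 1 intracellular brake rose and 3 fell, and 2 E proteins rose and 1 fell, where 21.2% of genes were called higher and 38% lower. With the random block these counts were 8 and 0, 1 and 2, and 1 and 1, where 43% of genes were called. The medians in vector samples were 1.26 for secreted modulators, 1.79 for responsive genes and -0.27 for intracellular brakes, against -0.24 over all genes tested. Fewer than 2 ES cell arrays lay above the array median for Bmper and for 4 of the 10 responsive genes (Tbx20, Gata3, Hand1 and Dlx3), and fewer than 2 embryoid body arrays did for Chrd. As with Bmp2 and Bmp5, the stage differences of these genes, and the counts and medians that include them, were in part built into the filter. Markers of other cell types moved with the stage: 8 of 8 pluripotency markers were called lower and 7 of 8 mesenchyme and smooth muscle markers higher in vector embryoid bodies, 6 of the 8 having passed the filter through embryoid bodies alone. The summed level of the 8 mesenchyme markers, as log2, was 13.99 to 15.19 in the 4 embryoid body arrays and 8.79 to 11.34 in the 4 ES cell arrays, and the part of cell composition in the members' differences was not tested.

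**Figure D4:**
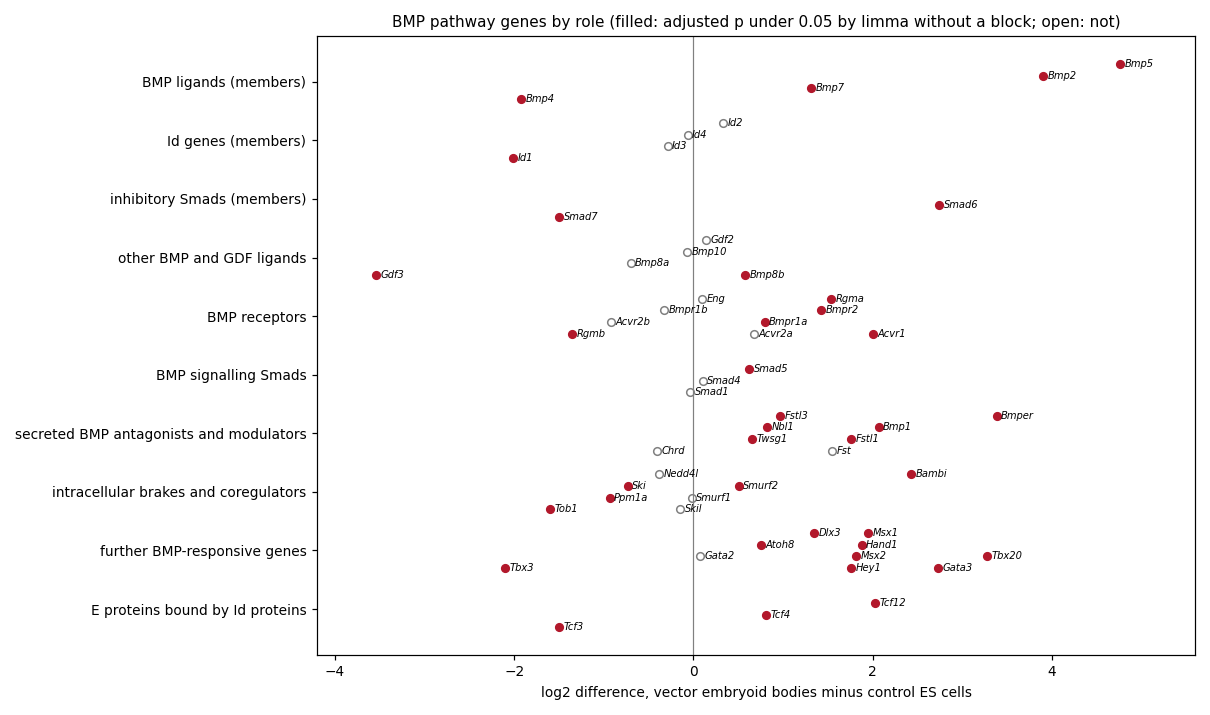
Log2 difference between vector embryoid bodies and control ES cells (horizontal axis) for the members and for each further pathway gene tested, in rows by role; vertical offsets within a row only keep labels apart. Filled points passed adjusted p under 0.05 by limma without a block and open points did not. Filled points lie on both sides of 0 in most rows. They lie on the right of 0 for 6 of 8 secreted modulators and 8 of 10 further BMP-responsive genes, where 22.7% of all genes tested were called higher.

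The next comparison set day 10 embryoid bodies labelled Bmi1 against those with vector. None of the 10 members was called, without a block, where limma called 0.139% of genes, or after blocking on the embryoid body set, where it called 2.09%. No member had arrays that did not overlap between the groups, where 25.2% of all genes did. At an unadjusted p under 0.05, 0 members passed without the block, where 7.06% of genes did, and Bmp5 and Smad6 passed with it, where 21.3% did, so 2 of 10 is near the background. The median log2 difference of the members was -0.07, against -0.04 over all genes tested. Bmp5 and Smad6 had the same direction in both sets. Bmp5 was at 0.82 in the replicate 1 arrays and 0.37 in the replicate 2 arrays, which averages 0.60 ± 0.35 (SE over 2 and 2 arrays; limma's adjusted p = 0.83, or 0.089 with the block), and its other probe sets gave 0.09 and 0.17. Leaving out 1 array at a time put Bmp5 anywhere from 0.079 to 1.11. Smad6 was at -0.52 and -0.35, a mean of -0.44 ± 0.38 (adjusted p = 0.93, and 0.19 with the block). Bmp7 was also lower in both sets, at -0.15 and -0.07.

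The other 7 members changed sign between the sets. In the replicate 1 arrays 8 of the 10 members were higher in embryoid bodies labelled Bmi1, and in the replicate 2 arrays 1 of 10 was. Thus 3 of 10 members kept their sign across the sets, where 61.7% of all genes tested did. Id1 was at 0.19 and -1.06 in the replicate 1 and 2 arrays, Id3 at 0.25 and -0.53, Id4 at 1.10 and -0.21, Bmp2 at 0.37 and -0.44 and Bmp4 at 0.06 and -0.45. Id2 (0.17 and -0.03) and Smad7 (0.30 and -0.24) had smaller differences.

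The sets themselves differed in these genes by more than the groups did. In vector embryoid bodies 9 of 10 members were higher in replicate 2 than in replicate 1, with a median difference of 1.02 log2 units, where 59.2% of all genes were higher and the median was 0.13. In embryoid bodies labelled Bmi1, 9 of 10 were higher in replicate 2, with a median of 0.54, against 64.3% and 0.16 over all genes. Id4 differed by 0.89 between replicates labelled Bmi1 and by 2.20 between vector replicates, Id1 by 0.44 and 1.69, Id3 by 0.78 and 1.56 and Bmp2 by 0.74 and 1.55. Bmp7 was the exception, at -0.10 and -0.18. Value distributions also differed between the sets, so values and ranks can part. Labelled Bmi1, Smad7 went from percentile 84.4 in replicate 1 to 83.4 in replicate 2, and Id1 from 85.5 to 86.6. In vector embryoid bodies Id1 went from 83.3 to 93.3 and Id4 from 61.5 to 84.0. The part of scale in these differences was not tested. The summed level of the 8 pluripotency markers was also higher in replicate 2, at 13.06 against 11.68 in replicate 1 of embryoid bodies labelled Bmi1 and at 13.42 against 11.33 in vector embryoid bodies. Its part in the members' differences was not tested.

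**Figure D5:**
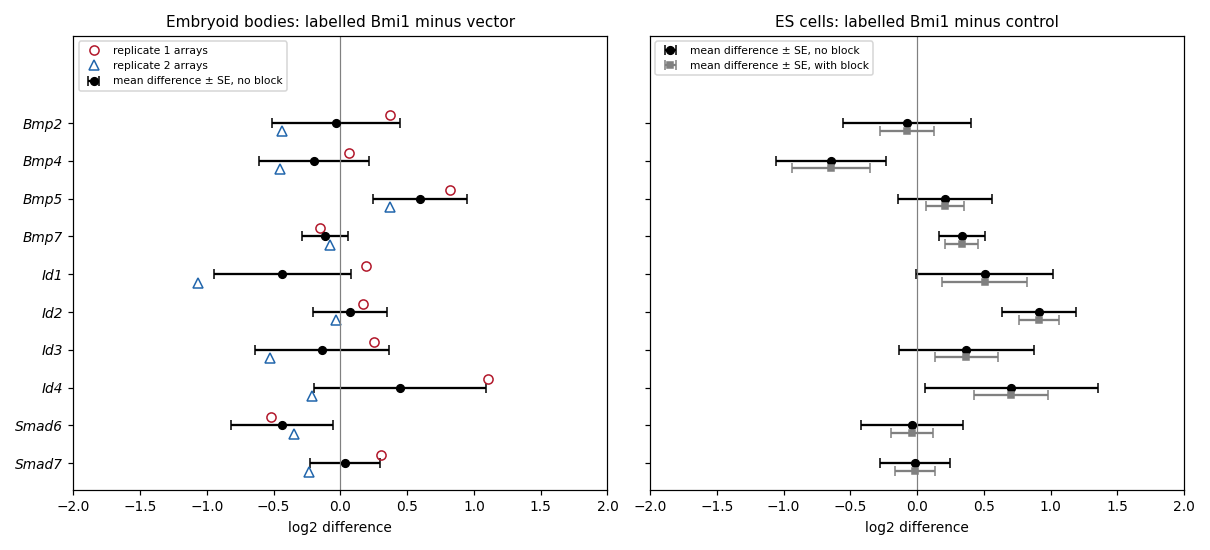
Log2 differences for each gene (horizontal axis), left for embryoid bodies with the Bmi1 label against vector, right for ES cells with the Bmi1 label against control. Black circles are means of 2 arrays minus 2 arrays with the SE of the fit without a block, open symbols on the left are the differences within the replicate 1 and replicate 2 arrays, and grey squares on the right carry the SE after blocking on the embryoid body set; the open circle lies right of the open triangle for 8 of 10 genes, and all 4 Id genes lie right of 0 in ES cells.

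In other genes of the pathway the embryoid body comparison gave calls with the block alone. Gata2, a transcription factor that BMP signals induce, averaged 8.72 in embryoid bodies labelled Bmi1, against 7.29 with vector. It differed by 1.43 ± 0.22 (1.64 and 1.22 in the sets, limma's adjusted p = 0.092, and 0.011 with the block). Dlx3 was at 0.72 ± 0.18 (0.63 and 0.81, adjusted p = 0.31, and 0.037 with the block) and the secreted inhibitor Fstl3 at 0.74 ± 0.17 (0.64 and 0.85, adjusted p = 0.27, and 0.045 with the block). None of the receptor, signal-carrying Smad, intracellular brake or E protein genes was called with or without it. Cell type markers also differed with the block, where 2.09% of all genes were called. There 3 of 8 cardiac muscle and 3 of 6 trophoblast markers were called higher, and 3 of 8 endothelial, 2 of 7 neural, 1 of 6 visceral endoderm and 1 of 7 blood cell markers lower. Without the block 1 cardiac muscle marker was called higher and no other marker was called, where 0.139% of genes were. The marker lists were chosen with earlier results of these data known, so these counts cannot be weighed against the shares over all genes. The summed trophoblast level was 12.24 and 12.29 with the Bmi1 label, against 10.01 and 11.19 with vector. The summed cardiac level was 12.47 and 12.78 with the Bmi1 label, against 9.98 and 12.18 with vector, and the summed endothelial level was 10.50 and 10.63, against 11.29 and 11.34. Their part in the differences of Gata2, Dlx3 and Fstl3 was not tested.

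The same question was asked in undifferentiated ES cells, with ES cells labelled Bmi1 set against control ES cells. All 4 Id genes were higher in both arrays labelled Bmi1 than in both control arrays, with a median log2 difference of 0.61, against 0.00 over all genes tested. With Bmp5 and Bmp7, 6 of 10 members were higher without overlap of the arrays, where 25.1% of all genes were higher and 45.6% were higher or lower without overlap. Bmp5 was among them by its brightest probe set alone. No member was called without the block, where limma called 0.0462% of genes, and Id2 was called with it, where 1.66% were. At an unadjusted p under 0.05, Id2 alone passed without the block, where 6.29% of genes did, and Id2, Id4 and Bmp7 passed with it, where 13.5% did. Id2 read 11.99 and 11.87 with the Bmi1 label, above the untreated array at 10.84 and the empty vector array at 11.20. The difference was 0.91 ± 0.28 on the log2 scale (SE, n = 2 and 2 arrays, limma's adjusted p = 0.48), or ± 0.15 with the block (adjusted p = 0.045). The block has no term for the ES cell arrays, so the difference was unchanged. Its smaller SE came from spread between the embryoid body sets leaving the shared spread. The second Id2 probe set, at 11.46 and 11.42 against 10.37 and 10.79, gave 0.86, and the dim one 0.23. The set as a random block puts all 4 ES cell arrays in 1 block. There the call also held at an unchanged difference (adjusted p = 0.035), where 2.13% of genes were called. It did not hold with ES cell arrays alone (0.072), over all 26332 probe sets with the block (0.079), with a replicate block over the 6 numbered arrays (0.21), or against the untreated or the empty vector array alone (1.09 and 0.73, adjusted p = 1).

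Id4 was at 0.70 ± 0.65 (adjusted p = 1, and 0.34 with the block), and its other probe sets gave 0.80 and 0.28. Id1 was at 0.51 ± 0.51, with the empty vector array at 11.64 close to the arrays labelled Bmi1 at 11.88 and 11.79, and Id3 was at 0.37 ± 0.50, with 10.26 in the lower array labelled Bmi1 and 10.22 in untreated cells (adjusted p = 1 for both, and 0.61 and 0.62 with the block). The ligand Bmp4 ran the other way, with 10.29 and 10.82 on the arrays labelled Bmi1, 10.82 on the untreated and 11.58 on the empty vector array, and a difference of -0.64 ± 0.41 (adjusted p = 1, and 0.42 with the block). The groups touched, because one array labelled Bmi1 matched the untreated array. Bmp7 was at 0.33 ± 0.17 and Bmp5 at 0.21 ± 0.35, both without overlap of the arrays, though Bmp5 lay near the floor. The other Bmp5 probe sets gave -0.011 and 0.04, and by each of them the arrays of the groups overlapped. Smad6, Smad7 and Bmp2 were at -0.04 ± 0.38, -0.01 ± 0.26 and -0.07 ± 0.48, each smaller than its SE.

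No other gene of the pathway lists was called in ES cells without a block or after blocking on the embryoid body set. The smallest p values with that block were those of the type I receptor Bmpr1b, at 6.03 on average with the Bmi1 label and 4.92 in controls, a difference of 1.11 ± 0.24 (adjusted p = 0.22, and 0.055 with the block), and of Bmp8b, at 0.69 ± 0.18 (adjusted p = 0.36, and 0.059 with the block), and both were called with the random block (0.026 and 0.041). Bmpr1b lay above the array median on the 2 arrays labelled Bmi1 alone, so its difference was in part built into the filter. Among 9 receptor genes 8 were higher, with a median of 0.28, and all 8 secreted modulators were higher, with a median of 0.16, against 0.00 over all genes tested. These are counts of sign alone, and no share over all genes was taken for them. The differences ran from -0.03 to 1.11 in the receptor genes, the highest being Bmpr1b, and from 0.006 to 0.44 in the modulators. The 8 pluripotency markers were all lower in ES cells labelled Bmi1, with a median of -0.24 and none called, and their summed level was 15.41 and 15.28 with the Bmi1 label, against 15.60 and 15.57 in controls. Of the 8 mesenchyme and smooth muscle markers 4 were higher and 4 lower, with a median of 0.04, and their summed level, 10.49 and 11.34 with the Bmi1 label against 8.79 and 9.37 in controls, was mostly that of Tagln, an actin-binding protein of smooth muscle, at 10.11 and 11.07 against 7.55 and 8.51. The part of either in the Id values was not tested.

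Whether the difference labelled Bmi1 against control depended on the stage was tested with the interaction term. No member was called, without the block, where limma called 0% of genes, or with it, where it called 0.824%. At an unadjusted p under 0.05, 0 members passed without the block, where 6.83% of genes did, and Id2 and Bmp7 passed with it, where 17.3% did, so this count too is near the background. Id1 was at -0.94 ± 0.73, running from -1.79 to -0.096 when 1 array at a time was left out, Id2 at -0.84 ± 0.39 (adjusted p = 0.82, and 0.12 with the block), Id3 at -0.51 ± 0.71 and Bmp7 at -0.45 ± 0.24, each estimate being lower among embryoid bodies than among ES cells. The Id gene differences in embryoid bodies were therefore not shown to differ from those in ES cells at this number of arrays.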

How the data were processed

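Total RNA of 8 samples was hybridised to Affymetrix arrays, 1 microgram RNA each, per the labels' protocols. The authors deposited log2 values summarised by RMA, per the submitters' processing notes, and its version and which arrays were normalized together are not given in the sources used here. The brightest probe set with 1 gene symbol stood for each of 18193 genes, and 12982 genes above the array's median on at least 2 arrays were tested. A gene's level was fitted as 4 group means over all 8 arrays, which leaves 4 residual degrees of freedom, by lmFit and eBayes of limma 3.58.1 (R 4.3.3), with Benjamini-Hochberg adjustment over all genes tested and a threshold of 0.05, and every adjusted p comes from such a fit. Two-sided tests covered 5 contrasts. The fit was also run on simulated data with independent noise on each array, which cannot speak to the difference between sets.

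Deviations from the group means of the first embryoid body pair correlated at 0.72 and those of embryoid bodies with ES cells at 0.03 and 0.04, so the embryoid body set was added as a block for comparisons within a stage. That block leaves the ES cell differences unchanged and acts on them only through the shared spread. For the stage comparison the set entered as a random block (duplicateCorrelation, correlation 0.70), chosen after the data were seen. Alternatives were the filter, the probe set rule, quantile normalization, median centring, the prior, the arrays fitted, each control array alone, a replicate block over the 6 numbered arrays and leaving out each array. A fit with 1 control array alone was the same as leaving out the other control array, so its values are counted under both.

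The members and the 15 gene lists were chosen with earlier results of these data known, so counts within them are not independent of these data. Named genes are the 10 members, list genes called in any contrast (or the 2 with the smallest p), and the 5 genes most like Id1, Id2, Id3 and Bmp4. Probe sets with several symbols (932) or none (9160) were left out. The labels do not tell why Bmi1 signal was low, and the number of arrays limits the precision.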

Additional observations from a re-analysis of the deposited data

How the results depend on the processing

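Of 975 recomputed member values, 911 kept their direction and their side of the threshold, 11 gained and 7 lost a call, and 46 changed sign, 34 of them on leaving out 1 array; 1 of those that changed sign was called (Id4 between stages in vector samples). No member was called in the embryoid body comparison or in the difference between stages under any alternative, and the cause of the changes below was not tested. With the embryoid body set as a replicate block, or as a random block, 1 member (Id2) was called in ES cells, at an unchanged difference. The block called 271 genes in embryoid bodies, where 18 were called without it, and 216 in ES cells, where 6 were. Alternatives other than leaving out 1 array at a time, some of which fit fewer arrays, gave 0 to 317 in embryoid bodies and at most 276 in ES cells. Their stage calls ran from 5577 to 14302 in samples labelled Bmi1 and reached 14128 in vector samples, the highest when every probe set was tested. The embryoid body set as a replicate block also called Id2 (adjusted p = 0.019) and Id3 (0.018) lower in embryoid bodies labelled Bmi1 than in ES cells labelled Bmi1, but it takes no account of spread between sets at different stages. Id2 was called there with the mean of its probe sets (-0.81) and with median centring (-0.85) as well.

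Averaging the probe sets of a gene gave -0.13 for Id2 in embryoid bodies, 0.076 for Smad7 in ES cells, and -0.012 for Id2 and 0.0395 for Id4 between stages in vector samples. Quantile normalization gave 0.045 for Bmp2 in embryoid bodies, 0.029 for Id4 in the difference between stages, 0.39 for Id3 between stages in vector samples and 0.49 for Id2 in samples labelled Bmi1. It moved the members' median between stages to 0.24 in samples labelled Bmi1 and 0.76 in vector samples, and median centring to -0.76 and -0.19. The same scalings moved the median of all genes to -0.03 and -0.04 and to -0.62 and -0.56. Median centring put Smad7 in ES cells at 6.7e-05. Against the empty vector array alone Smad6 and Smad7 were at 0.13 and 0.019 in ES cells, and against the untreated array alone Id4 was at 0.0041 between stages.

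Leaving out 1 array at a time, the differences in embryoid bodies ran over -0.81 to 0.74 for Bmp2, -0.70 to 0.31 for Bmp4, -1.28 to 0.41 for Id1, -0.26 to 0.40 for Id2, -0.92 to 0.64 for Id3, -0.66 to 1.55 for Id4, -0.92 to 0.047 for Smad6, -0.35 to 0.42 for Smad7, and the members' median over -0.68 to 0.41. In ES cells they ran over -0.21 to 0.059 for Bmp2, -0.20 to 0.13 for Smad6, -0.072 to 0.044 for Smad7. The difference between stages ran over -0.73 to 0.82 for Bmp2, -0.055 to 0.95 for Bmp4, -0.13 to 0.90 for Bmp5, -1.29 to 0.27 for Id3, -1.36 to 0.84 for Id4, -0.88 to 0.084 for Smad6, -0.34 to 0.43 for Smad7, with a median over -0.76 to 0.35. Between stages the median ran over -0.75 to -0.076 in samples labelled Bmi1 and -0.53 to 0.85 in vector samples, Id3 over -1.07 to 0.49 and Id4 over -1.17 to 1.04 in vector samples, and Id4 over -0.77 to 0.12 in samples labelled Bmi1. The number of called members ran from 6 to 8 in samples labelled Bmi1 and from 6 to 9 in vector samples.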
